A study of Mus musculus with 30 samples.

Results

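The genes that sense and repair DNA double-strand breaks, together with the Fanconi anaemia genes that clear interstrand crosslinks, were followed through 3 mouse data sets on therapy-related myeloid disease. The 35 members were taken by gene symbol, and all 35 were listed in each table, of 21039 gene names in the 3 tables together. No measured value served as a rule for the choice, but earlier results of these data were known when it was made. The measurements were RNA sequencing values per gene in 30 libraries of C57BL/6 mice.

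A double-strand break is sensed by the Mre11a, Rad50 and Nbn complex and by the kinase Atm, while the kinase Atr answers to single-stranded DNA at resected ends and stalled forks. The break is then joined directly by the Ku proteins (Xrcc5 and Xrcc6), Prkdc, Xrcc4 and Lig4, or copied from the sister chromatid by homologous recombination, which needs Brca1, Brca2 and Palb2 and works mainly after DNA has been replicated. Fanconi proteins hand crosslinked forks to the same recombination machinery, and people who inherit defects in them develop marrow failure and myeloid leukaemia.

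The EAP with ENU group (3 libraries) held LSK cells, the Lin- Sca1+ Kit+ marrow fraction with stem and multipotent progenitor cells. They came from wild-type recipients of Egr1+/-, Apc del/+ marrow transduced with a Trp53 shRNA, and both donor and recipient had been given ENU, an alkylating mutagen. The EAP group (3) had the same alleles and shRNA and no ENU. The transplanted WT group (3) received wild-type marrow with a Luciferase shRNA, and the WT group (3) was neither transplanted nor transduced. LSK cells were sorted about 2 months after transplant, before disease. The AML group (6) was whole marrow of diseased recipients of Egr1+/-, Apc del/+ marrow with the Trp53 shRNA. ENU had gone to donor and recipient in 3 of these mice, to the recipient alone in 1 and to neither in 2. The MDS group (6) carried the same Egr1 and Apc alleles with the Luciferase shRNA, and ENU had gone to donor and recipient in all 6. The ENU stromal group (3) was mesenchymal stromal cells from compact bone of mice given 100 mg/kg ENU 1 month earlier, grown to passage 1 or 2, and the mock stromal group (3) came from mice given 10% ethanol. AML and MDS mice differed in shRNA as well as in disease, so these cannot be told apart. They also differed in part in ENU exposure, which the AML against MDS differences below do not separate. The sources used here do not state the cells in which the Apc allele was deleted, the share of host cells left after transplant, or the sex and age of the mice.

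Trp53, the knocked-down gene, followed its label in LSK cells. Its normalised signal, given from lowest to highest and not by library number, was 70.6, 76.1 and 173 in EAP with ENU cells. In the same order it was 65.5, 106 and 132 in EAP cells, against 247, 308 and 370 in transplanted WT cells. In marrow Trp53 ran from 23.0 to 58.0 (median 30.2) in AML and from 43.2 to 97.9 (median 64.8) in MDS. Egr1 was not lower in every EAP library, although EAP cells carry its deleted allele. From lowest to highest it was 75.0, 329 and 840 in EAP and 133, 137 and 188 in transplanted WT cells. The lowest EAP library lay below all transplanted WT libraries and the others lay above them. For EAP 1 the transplant label names WT donor marrow, while the allele and shRNA labels place it in EAP. EAP 1, transplanted WT 3 and WT 2 were set apart from the other LSK libraries by a trend with transcript length, given after the LSK comparisons. Their median correlations with the other LSK libraries were 0.856, 0.914 and 0.855, against 0.895 to 0.954 for the 9 others. EAP 1 and WT 2 were thus the lowest by correlation too, and transplanted WT 3 lay within the range of the 9 others. AML 3 stood apart from the other marrow libraries, with a median correlation of 0.478 with them. Each comparison gives the members' counts or median without these libraries where they move. The stromal cultures held stromal markers at a summed 2083 to 7585 TPM with ENU and 4045 to 6803 TPM in mock cultures, and Cd3e and Cd3g were at 0. No library had a sequencing depth that the LSK or stromal tables could show. Marrow libraries held 17341986 to 21698808 recovered reads, and the member with fewest reads in a library was Lig4 in AML 1, with 75.

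**Figure D1:**
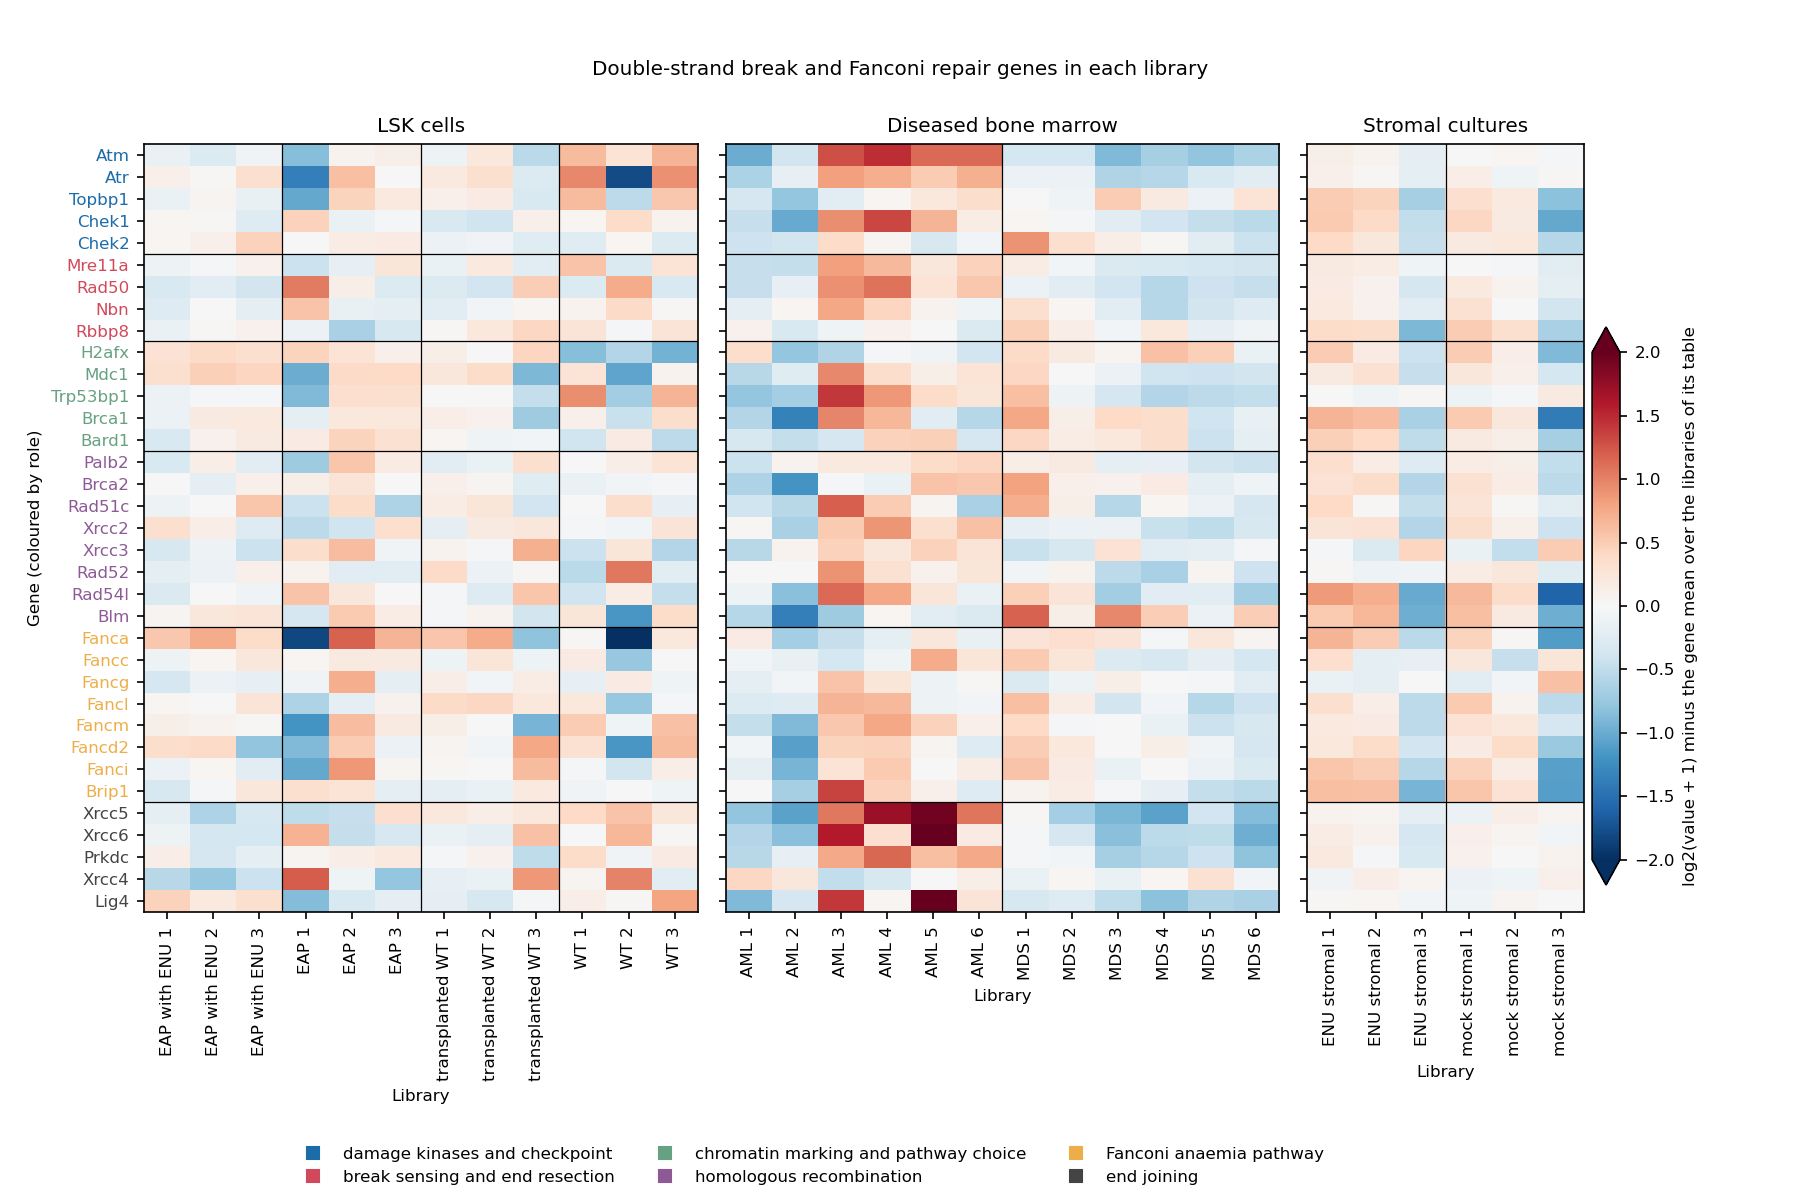
Each cell is log2(value + 1) of 1 member in 1 library minus that member's mean over the libraries of its table, for 35 genes grouped by role (rows) in 30 libraries (columns). Colours end at 2 above and below the mean. Colour shifts within groups are as plain as shifts between them, in AML 3 to 6 against AML 1 and 2, in WT 2, transplanted WT 3 and EAP 1, and in the third stromal culture of both groups.

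In none of 7 comparisons did any of the 35 members pass an adjusted p of 0.05 (limma, Benjamini-Hochberg over all genes tested). Among all genes, 0.0256% passed in EAP against transplanted WT, 0% in EAP with ENU against EAP, 0.0171% in EAP with ENU against transplanted WT and 0.0256% in transplanted WT against WT. The share was 3.20% in AML against MDS, 0.0976% in AML with ENU against AML without ENU and 0% in ENU against mock stromal cells. At an unadjusted p under 0.05 there were 1, 1, 1, 1, 10, 4 and 0 members in that order of comparisons. Of all genes tested, 3.61%, 5.26%, 3.21%, 7.29%, 29.3%, 11.0% and 2.58% had such a p in the same order, and the 10 in AML against MDS were 28.6% of the members. A list of 67 further pathway genes (recombination factors, resection nucleases, other Fanconi, checkpoint and ubiquitin factors), of which 65 to 67 were listed in each table, likewise gave 0 genes past the threshold in each of the 7 comparisons.

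Promoters were read for 28 of the members from RefSeq (GRCm38.p6), as the 250 bases before and the 50 after the annotated start. Cell-cycle genes are often controlled by E2F factors, so the words TTTCCCGC, TTTGGCGC, TTTCGCGC and TTTGCCGC were searched on both strands. They were found in 8 members (Bard1, Brca2, Chek2, Fancg, Mdc1, Rad51c, Topbp1 and Xrcc6), or 28.6%, against 2.60% of 27025 genes. The word TTTGAA (CHR) was in 1 member, or 3.57%, against 20.2% of genes, and CCAAT was in 15, or 53.6%, against 41.1%. No E2F word found in these members shared a base with a CHR or CCAAT word. A word is a match of letters and no evidence of binding. The 4 windows printed are those of Brca2 (chr5:150522371-150522670, plus strand), Bard1 (chr1:71102923-71103222, minus strand), Topbp1 (chr9:103305077-103305376, plus strand) and Fancg (chr4:43010252-43010551, minus strand). They are shown since the first 3 genes were low together with cell-cycle genes in a pair of stromal cultures, described with the stromal results, and Fancg was not. Capitals mark the E2F word, and each window is written 5' to 3' on the gene's strand.
Brca2: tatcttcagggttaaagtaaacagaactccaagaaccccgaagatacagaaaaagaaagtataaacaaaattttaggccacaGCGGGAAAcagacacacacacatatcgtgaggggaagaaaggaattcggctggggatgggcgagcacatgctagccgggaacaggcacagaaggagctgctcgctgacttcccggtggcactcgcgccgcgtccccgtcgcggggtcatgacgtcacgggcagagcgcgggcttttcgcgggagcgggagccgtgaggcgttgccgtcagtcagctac
Bard1: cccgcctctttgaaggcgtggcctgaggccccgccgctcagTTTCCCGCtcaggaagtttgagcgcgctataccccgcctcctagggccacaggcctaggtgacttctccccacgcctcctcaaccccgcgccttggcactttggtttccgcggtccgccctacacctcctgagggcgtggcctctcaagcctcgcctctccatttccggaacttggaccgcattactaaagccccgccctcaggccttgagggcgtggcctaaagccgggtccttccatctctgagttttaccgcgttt
Topbp1: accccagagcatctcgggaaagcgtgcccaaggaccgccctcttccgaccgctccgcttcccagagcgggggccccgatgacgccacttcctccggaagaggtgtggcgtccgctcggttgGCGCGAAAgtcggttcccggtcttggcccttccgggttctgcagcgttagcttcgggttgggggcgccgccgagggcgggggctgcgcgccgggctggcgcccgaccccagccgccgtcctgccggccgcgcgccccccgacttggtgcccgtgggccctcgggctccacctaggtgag
Fancg: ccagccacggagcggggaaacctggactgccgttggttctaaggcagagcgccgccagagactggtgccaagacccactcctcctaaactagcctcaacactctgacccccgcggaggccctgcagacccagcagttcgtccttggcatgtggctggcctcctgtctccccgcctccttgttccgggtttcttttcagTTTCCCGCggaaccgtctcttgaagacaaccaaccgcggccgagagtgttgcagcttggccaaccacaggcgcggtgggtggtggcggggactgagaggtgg

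The Brca2 and Topbp1 words lie on the opposite strand of the gene, as GCGGGAAA and GCGCGAAA. In Bard1 and Fancg the word TTTCCCGC lies on the gene's own strand. Their first base is 168 bases before the start in Brca2, 209 in Bard1, 129 in Topbp1 and 52 in Fancg.

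AML against MDS asked how marrow with the Trp53 shRNA and leukaemia differs from marrow with the same Egr1 and Apc alleles and dysplasia. The members' median log2 difference was 0.28, against 0.04 over all genes tested, and 23 of 35 were higher in AML. No member's AML and MDS libraries were fully apart, against 1.71% of all genes that were apart and higher and 2.13% that were apart and lower. AML libraries had median correlations of 0.478 to 0.907 with the other marrow libraries, against 0.907 to 0.957 for MDS libraries, and many members split the AML libraries into AML 3 to 6 and AML 1 and 2. In whole marrow, fewer cells of a type and less RNA per cell cannot be told apart.

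Among the damage kinases, Atm (chr9:53439149-53536740, mm10) had 29.1, 45.4, 145, 165, 131 and 130 in AML 1 to 6, against a lowest of 31.3, a median of 37.1 and a highest of 45.9 in MDS. AML 3 to 6 lay above every MDS library, AML 2 lay within them and AML 1 below. The means were 108 ± 56.3 in AML and 38.5 ± 6.15 in MDS (SD, n = 6 each), a log2 difference of 1.23 ± 0.39 (SE, limma, adjusted p = 0.0823). Atr was at 28.7, 39.9, 79.7, 74.6, 64.1 and 73.7 in AML 1 to 6 and at 29.2 to 41.3 (median 37.1) in MDS, with the same 4 AML libraries above all MDS libraries (log2 difference 0.65 ± 0.25, limma adjusted p = 0.116). Chek1, the kinase that Atr activates, was above all MDS libraries in those 4 too. Chek2, the kinase activated by Atm, was within the MDS range in every AML library. Topbp1, the activator of Atr, was below all MDS libraries in 3.

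The widest gaps between AML mice among the members were those of 3 of the 5 end-joining factors, with a highest over lowest value of 14.4 for Lig4, 10.5 for Xrcc6 and 8.98 for Xrcc5, followed by Atm (5.68) and Chek1 (5.38). Xrcc5 (chr1:72307421-72394952), the larger Ku subunit, had 9.56, 7.64, 36.7, 59.4, 68.6 and 37.2 in AML 1 to 6, against 7.64 to 17.5 (median 9.68) in MDS. Again AML 3 to 6 were above every MDS library and AML 1 and 2 within their range (log2 difference 1.30 ± 0.50, limma adjusted p = 0.120). Xrcc6, its partner, had 38.1, 31.8, 175, 72.7, 333 and 64.7 in AML 1 to 6 and 28.9 to 56.8 (median 39.9) in MDS. AML 5 was the highest library, and the log2 difference was 1.06 ± 0.49 (limma adjusted p = 0.173). Xrcc6 overlaps Desi1 on the opposite strand, and the sources used here do not state whether strand was used in counting. Brca2, Rad54l, Xrcc3, Atr, Mre11a, Fanca, Fancc, Fancd2, Fanci, Fancl, Xrcc4, Trp53bp1 and Rbbp8 also overlap other genes on the opposite strand. Lig4, the ligase of end joining, had 4.10, 6.47, 24.2, 8.74, 59.2 and 10.3 in AML 1 to 6 and 4.34 to 6.88 (median 5.42) in MDS (log2 difference 1.05 ± 0.50, limma adjusted p = 0.177). Prkdc, the kinase that Ku recruits, had 33.8, 44.3, 85.4, 112, 75.9 and 85.1 in AML 1 to 6, against 28.2 to 48.8 (median 35.2) in MDS (log2 difference 0.85 ± 0.28, limma adjusted p = 0.0871). Xrcc4, the scaffold of Lig4, went another way: it was above all MDS libraries in AML 1 alone and below them in AML 3 and AML 4.

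Of the break-sensing complex, Rad50 had 48.9, 60.4, 129, 144, 81.9 and 98.4 in AML 1 to 6 and 45.2 to 62.0 (median 51.0) in MDS. AML 3 to 6 lay above every MDS library (log2 difference 0.73 ± 0.24, limma adjusted p = 0.0910). Mre11a was above all MDS libraries in the same 4 and below them in AML 1 and 2, and Nbn was above them in AML 3 and 4. Rbbp8, which promotes end resection, was above them in no AML library and below them in 2.

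Blm and H2afx were lower in AML on average. Blm (chr7:80454733-80535119), a helicase that unwinds recombination intermediates, had 53.9, 30.5, 49.0, 82.7, 69.8 and 65.9 in AML 1 to 6, against 73.9 to 183 (median 114) in MDS. AML 1, 2, 3, 5 and 6 lay below every MDS library and AML 4 lay above the lowest. The means were 58.6 ± 18.3 in AML and 122 ± 41.8 in MDS (SD, n = 6 each), a log2 difference of -1.04 ± 0.27 (SE, limma, adjusted p = 0.0536). H2afx (chr9:44334694-44336077), the histone variant that is phosphorylated around breaks, had 211, 95.6, 108, 160, 156 and 127 in AML 1 to 6 and 150 to 247 (median 201) in MDS. AML 2, 3 and 6 were below all MDS libraries (log2 difference -0.51 ± 0.20, limma adjusted p = 0.126).

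**Figure D2:**
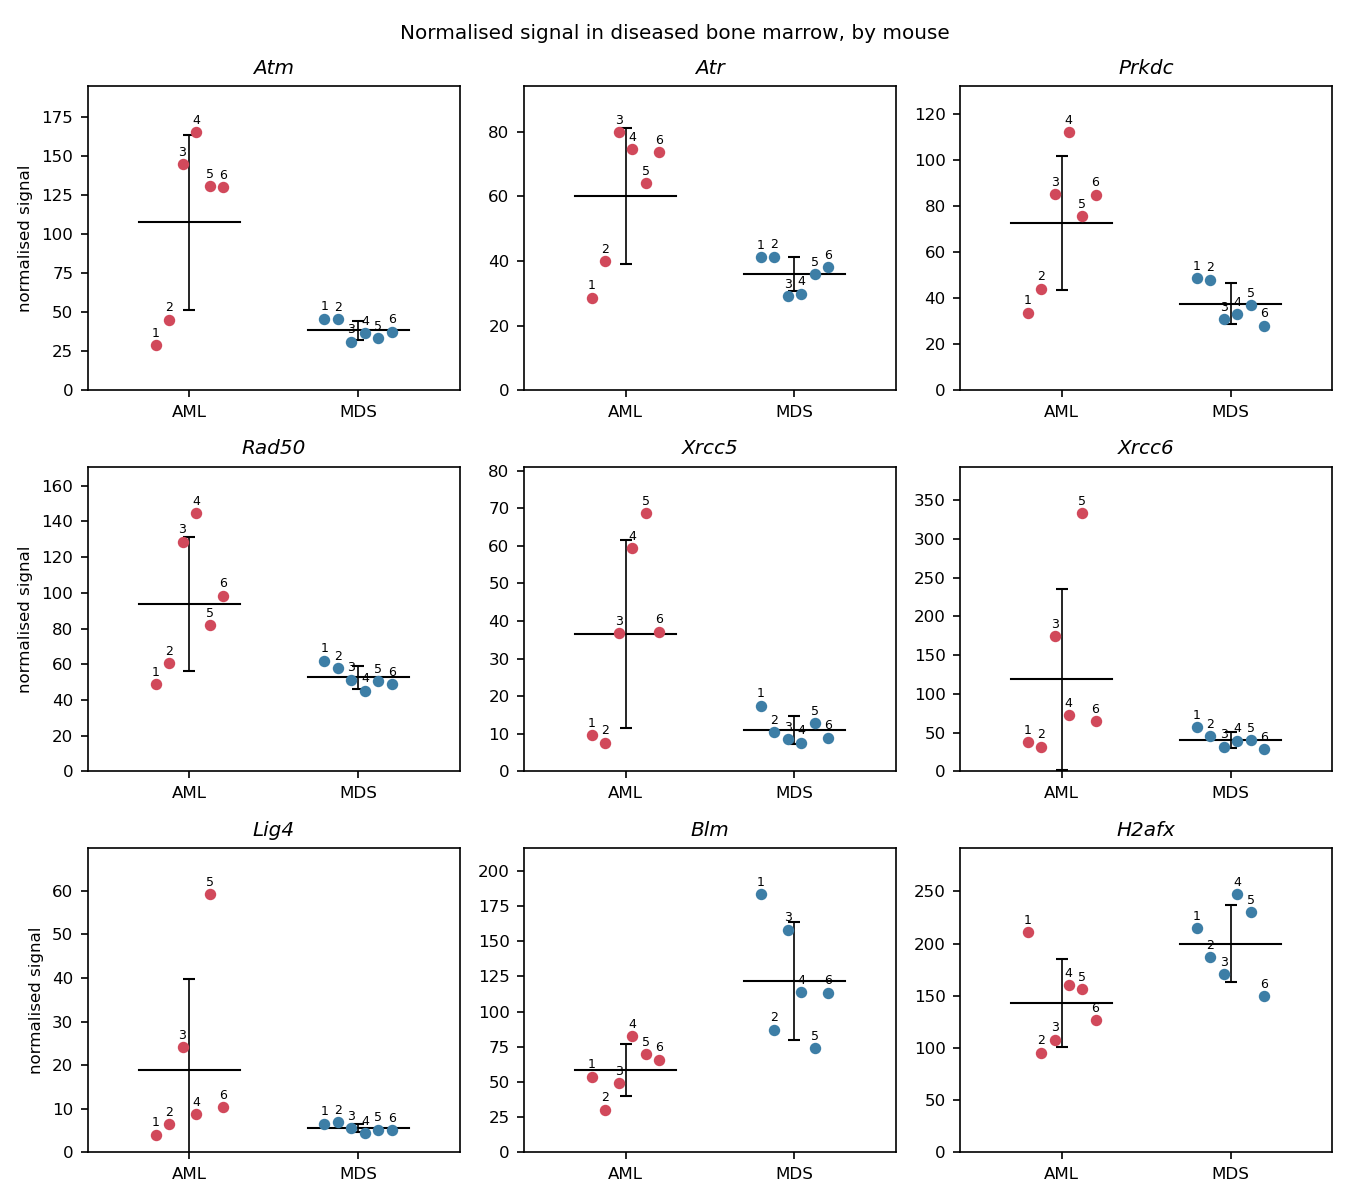
Normalised signal of 9 members in AML (left) and MDS (right) marrow, each axis starting at 0, with a numbered point per mouse and lines for the mean and SD (n = 6 each). Atm, Atr, Prkdc, Rad50, Xrcc5, Xrcc6 and Lig4 are above all MDS mice in AML 3 to 6. Blm is below all MDS mice in 5 of 6 AML mice.

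Among homologous recombination factors, Xrcc2 was above all MDS libraries in 5 of 6 AML libraries, at 14.6, 8.76, 21.0, 27.1, 18.1 and 22.0 in AML 1 to 6 and 9.82 to 13.1 (median 11.9) in MDS. AML 2 was below all of them, and the log2 difference was 0.56 ± 0.24 (limma adjusted p = 0.145). Palb2, which links Brca1 to Brca2, and Rad52, which anneals single strands, were above all MDS libraries in AML 3 to 6. Brca2, a core recombination factor, was above them in none and below them in 2. In the Fanconi pathway the core subunit Fanca was below all MDS libraries in 4 of 6 AML libraries (log2 difference -0.37 ± 0.17, limma adjusted p = 0.164). The monoubiquitinated pair Fancd2 and Fanci were above all MDS libraries in no AML library and below them in AML 2.

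By library, 2 members were above and 12 below all MDS libraries in AML 1, with 22.1% and 21.1% of all genes so placed. In AML 2 there were 0 above and 17 below (31.6% and 28.6% of all genes). AML 3 had 23 above and 5 below (41.9% and 39.5%), AML 4 had 20 and 2 (36.2% and 33.3%), AML 5 had 16 and 1 (36.3% and 31.7%) and AML 6 had 12 and 6 (34.8% and 31.7%). In AML 3, 4 and 5 members were thus more often above than below while all genes were nearly even, and in AML 1 and 2 it was the other way round. Over the 6 libraries, 12 members were above all MDS libraries in 4 or more AML libraries, against 23.5% of all genes. These were 4 of 5 end-joining, 3 of 5 checkpoint, 2 of 4 break-sensing and 3 of 8 recombination genes, and 0 of 8 Fanconi and 0 of 5 chromatin-marking genes. The 0 counts rest in part on MDS 1, the highest MDS library for Trp53bp1, Mdc1 and Fancm. In those genes AML 3 to 6 all lay above MDS 2 to 6. For Trp53bp1 these were 106 to 241 against at most 84.2, with MDS 1 at 137. The other Fanconi and chromatin-marking genes were not so placed. Only Blm and Fanca were below all MDS libraries in 4 or more AML libraries, against 20.8% of all genes.

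Cell markers also differed between the marrow libraries. The summed monocyte and macrophage markers were 2214 and 3262 in AML 1 and 2, above all MDS libraries, and 43.1, 972, 467 and 958 in AML 3 to 6, below all MDS libraries, which ran from 1194 to 2052. The summed erythroid markers (6 listed) were 372 to 5239 in AML and 6994 to 23529 in MDS, and the mitosis list (20 genes) was 1627 to 5776 in AML and 4194 to 9228 in MDS. The 20 DNA replication genes summed to 1512 to 4475 in AML, lowest in AML 2, and 2672 to 4004 in MDS. T cell markers (8 listed) reached 1258 in AML 4 and 2538 in AML 5, against 33.8 to 96.0 in MDS. B cell markers (6 listed) reached 2042 in AML 3, against 82.6 to 145 in MDS. Neutrophil markers (10 listed) summed to 112198 in AML 1, above all MDS libraries, which ran from 56717 to 91700. In AML 2 to 6 they summed to 19161, 434, 15369, 26507 and 8455, below all MDS libraries. Stem cell markers reached 1214 in AML 2 and 583 in AML 6, against 179 to 326 in MDS. Their part in the members' differences was not tested.

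**Figure D3:**
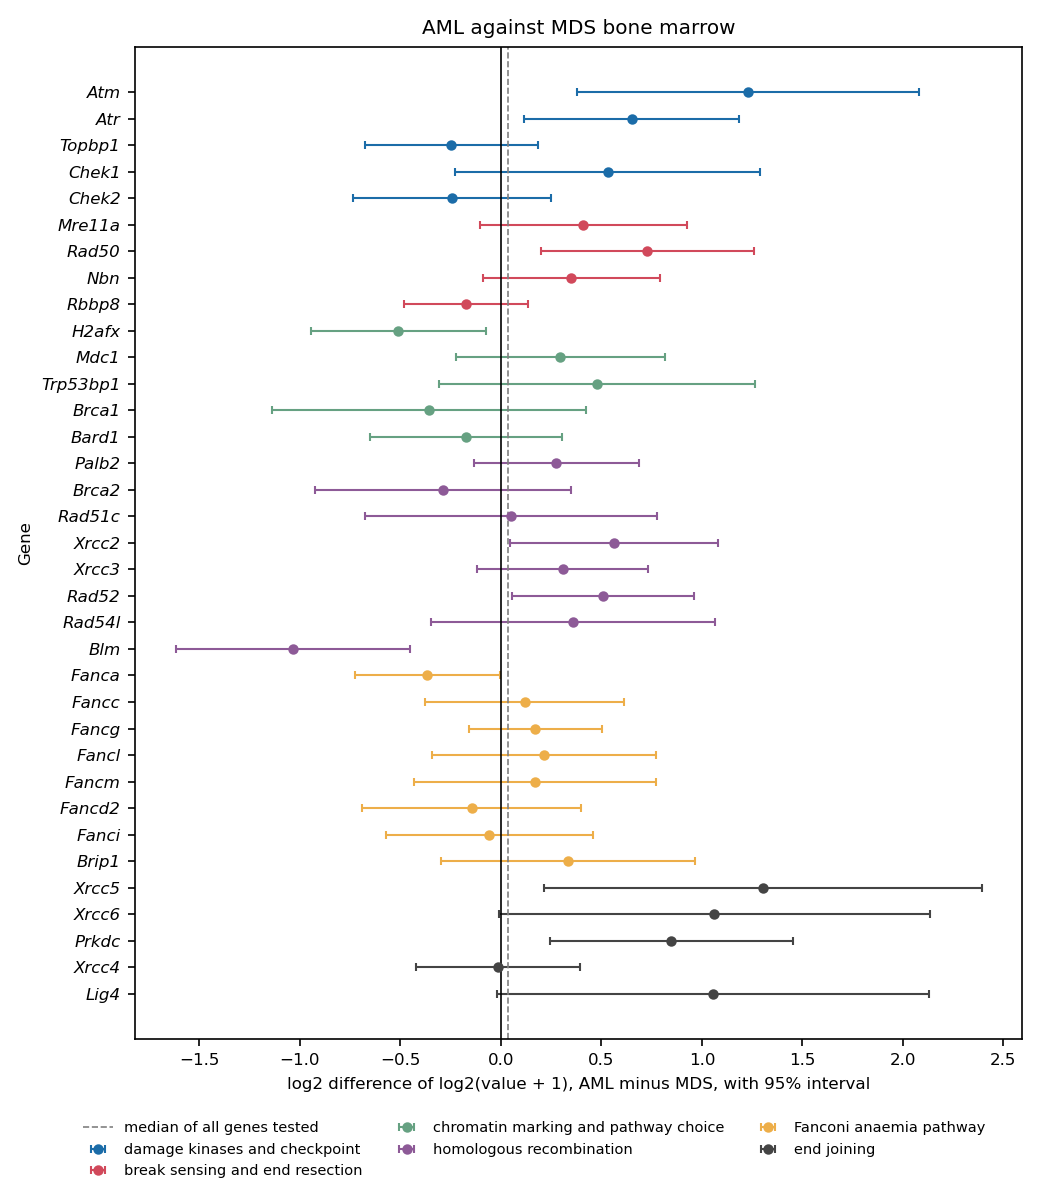
Difference of mean log2(value + 1), AML minus MDS, for the 35 members ordered by role, with 95% intervals from limma (n = 6 each). The dashed line is the median of all genes tested, 0.04. Atm, Atr, Rad50, Xrcc5, Prkdc, Xrcc2 and Rad52 have intervals above 0 and H2afx, Blm and Fanca below it, before adjustment over all genes.

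Which members passed depended on single AML mice. Without AML 1, 7 members passed (limma, adjusted p): Atm, Atr, Prkdc, Rad50 and Xrcc5 rose and Blm and H2afx fell, with 21.9% of all genes passing in that fit. Their log2 differences were 1.55, 0.84, 1.04, 0.89, 1.59, -1.02 and -0.63. Without AML 2, Xrcc2 and Xrcc5 passed, with 5.71% of all genes, and without AML 4 Blm passed, with 2.96%. Without AML 3, the library that stood apart, 0 members passed, with 2.37% of all genes, the members' median was 0.13 and the members with an unadjusted p under 0.05 numbered 6. In edgeR's quasi-likelihood test on the recovered reads of all 12 libraries Atm passed (log2 difference 1.49, adjusted p = 0.0486), with 3.97% of all genes. With any MDS library, AML 5 or AML 6 left out, 0 members and 0 to 1 of all genes passed.

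AML with ENU (4 libraries) against AML without ENU (2 libraries, AML 2 and AML 3) rests on few libraries, of which AML 3 stood apart. The libraries with ENU are AML 1, 4, 5 and 6, in that order below. The members' median log2 difference was 0.17, against 0.03 over all genes. Fanca was at 58.9, 45.7, 61.3 and 47.3 in AML with ENU, against 32.4 and 37.9 in AML without ENU, a log2 difference of 0.58 ± 0.20 (limma, adjusted p = 0.299). H2afx was at 211, 160, 156 and 127 in AML with ENU, against 95.6 and 108 in AML without ENU (log2 difference 0.66 ± 0.25, limma adjusted p = 0.358). Blm was at 53.9, 82.7, 69.8 and 65.9 with ENU and at 30.5 and 49.0 without it (log2 difference 0.78 ± 0.35, limma adjusted p = 0.443). Topbp1 was at 198, 256, 291 and 321 with ENU and at 146 and 213 without it (log2 difference 0.57 ± 0.26, limma adjusted p = 0.453). The first 3 of these, with Bard1 and Fancc, were 5 members higher in every library with ENU, where 5.09% of all genes were. No member was lower in every library with ENU, where 4.41% of all genes were. The median of the members turned to -0.49 without AML 2 and stood at 0.70 without AML 3, so each of the 2 libraries without ENU decided it. Without AML 2, Brip1, a helicase that binds Brca1, passed as lower, with 20.5% of all genes passing.

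In LSK cells, H2afx had the smallest p of any member, in transplanted WT against WT. It had 854, 793 and 1055 in transplanted WT cells, against 436, 521 and 409 in WT cells. It was 961, 1023 and 983 in EAP with ENU cells. In EAP cells it was 1071, 947 and 847, so all 9 transplanted libraries lay above all 3 WT libraries. Transplanted WT averaged 901 ± 137 and WT 455 ± 58.4 (SD, n = 3 each), a log2 difference of 0.98 ± 0.23 (SE, limma, unadjusted p = 0.0014, adjusted p = 0.311). It was the only member higher in every transplanted WT library, where 7.71% of all genes were. With a term for the 3 libraries that stand apart H2afx rose (log2 difference 0.98, limma adjusted p = 0.0134), with 2.34% of all genes passing. Without those libraries it rose by 0.96 (limma adjusted p = 0.0254) and Trp53bp1, which protects ends from resection, fell by 0.81 (limma adjusted p = 0.0322), with 4.18% of all genes passing. The mitosis list summed to 2400 to 3809 in transplanted WT and 1567 to 2081 in WT cells, the neutrophil list to 3184 to 7187 and 2008 to 2182 in the same groups. The LSK and stem cell list was lower without overlap, at 2511 to 2627 in transplanted WT and 2829 to 3784 in WT cells. The part of these lists in the H2afx difference was not tested. The 2 groups also differ in the Luciferase shRNA, which cannot be told apart from transplantation.

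Other members of this comparison stayed short of the threshold. Atm was at 5.56, 7.14 and 3.87 in transplanted WT and 9.92, 7.50 and 10.3 in WT cells, without overlap (log2 difference -0.67 ± 0.32, limma adjusted p = 0.710). Fancl, the Fanconi ubiquitin ligase, was at 42.0, 43.2 and 37.2 in transplanted WT and 37.3, 18.7 and 31.4 in WT cells (log2 difference 0.52 ± 0.28, limma adjusted p = 0.752). Xrcc3, a recombination factor, was at 44.0, 41.0 and 69.6 in transplanted WT and 30.8, 49.9 and 27.6 in WT cells (log2 difference 0.51 ± 0.30, limma adjusted p = 0.784). Atm, Xrcc5 and Lig4 were lower in every transplanted WT library, as were 8.42% of all genes.

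EAP against transplanted WT asked what the Egr1 and Apc alleles with the Trp53 shRNA do before disease. The members' median log2 difference was 0.03, against -0.02 over all genes, and single libraries set its sign, at 0.13 without EAP 1, -0.11 without EAP 2 and -0.03 without transplanted WT 3. Rbbp8 was at 29.4, 20.2 and 25.5 in EAP, below all of 32.6, 37.2 and 43.1 in transplanted WT cells (log2 difference -0.58 ± 0.22, limma adjusted p = 1.00). Fancl was at 20.5, 28.1 and 34.3 in EAP and 42.0, 43.2 and 37.2 in transplanted WT cells, also without overlap (log2 difference -0.57 ± 0.28, limma adjusted p = 1.00). These were the 2 members lower in every EAP library, where 3.18% of all genes were. Chek2 was at 53.3, 59.0 and 59.5 in EAP and 48.9, 50.6 and 44.8 in transplanted WT cells (log2 difference 0.25 ± 0.19, limma adjusted p = 1.00). With Bard1, the partner of Brca1, it made 2 members higher in every EAP library, where 3.80% of all genes were. Xrcc5 was at 29.6, 30.6 and 53.7 in EAP, where EAP 3 lay apart from the other two, and 49.2, 46.3 and 49.4 in transplanted WT cells (log2 difference -0.39 ± 0.25, limma adjusted p = 1.00).

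EAP with ENU against EAP asked what the mutagen adds, and its libraries were closer to each other than those of EAP, with median absolute deviations of the members of 0.15 to 0.17 and 0.35 to 0.54 on the log2 scale. The members' median log2 difference was 0.01, against 0.03 over all genes, with 19 of 35 higher. Without EAP 1 it was -0.15, against -0.02 over all genes, with 12 of 35 higher. Without all 3 libraries that stand apart, 6 members had an unadjusted p under 0.05, where 26.3% of all genes did, and 0 passed after adjustment. Lig4 was at 1.51, 1.10 and 1.28 in EAP with ENU and 0, 0.474 and 0.612 in EAP cells, values near the low end of the table (log2 difference 0.78 ± 0.29, limma adjusted p = 0.909). Xrcc3 was at 33.4, 39.0 and 31.0 in EAP with ENU and 54.2, 65.1 and 39.8 in EAP cells (log2 difference -0.59 ± 0.30, limma adjusted p = 0.909). Lig4 was the only member higher in every library with ENU (6.68% of all genes were) and Xrcc3 the only member lower in each (5.98%). Rbbp8 was at 29.4, 32.6 and 34.2 in EAP with ENU and 29.4, 20.2 and 25.5 in EAP cells (log2 difference 0.36 ± 0.22, limma adjusted p = 0.909). Rad50 was at 56.9, 60.8 and 54.5 in EAP with ENU and 145, 76.3 and 58.4 in EAP cells, where the highest is EAP 1, a library that stands apart (log2 difference -0.59 ± 0.38, limma adjusted p = 0.909, and -0.22 without EAP 1).

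EAP with ENU against transplanted WT shares its libraries with both comparisons above. Xrcc5 was at 37.0, 27.1 and 33.5 in EAP with ENU, below all of 49.2, 46.3 and 49.4 in transplanted WT cells (log2 difference -0.57 ± 0.25, limma adjusted p = 1.00). Xrcc3, Xrcc4 and Fancg were also lower in every EAP with ENU library, making 4 members where 8.61% of all genes were lower. Chek2 was at 54.4, 57.1 and 73.6 in EAP with ENU and 48.9, 50.6 and 44.8 in transplanted WT cells (log2 difference 0.34 ± 0.19, limma adjusted p = 1.00). It and Lig4 were higher in every EAP with ENU library, as were 9.90% of all genes. The Xrcc3 log2 difference was -0.53 ± 0.30 and that of Lig4 0.51 ± 0.29 (limma adjusted p = 1.00 for each). Xrcc5 had log2 differences of -0.57 in EAP with ENU and -0.39 in EAP, each set against the same transplanted WT libraries.

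**Figure D4:**
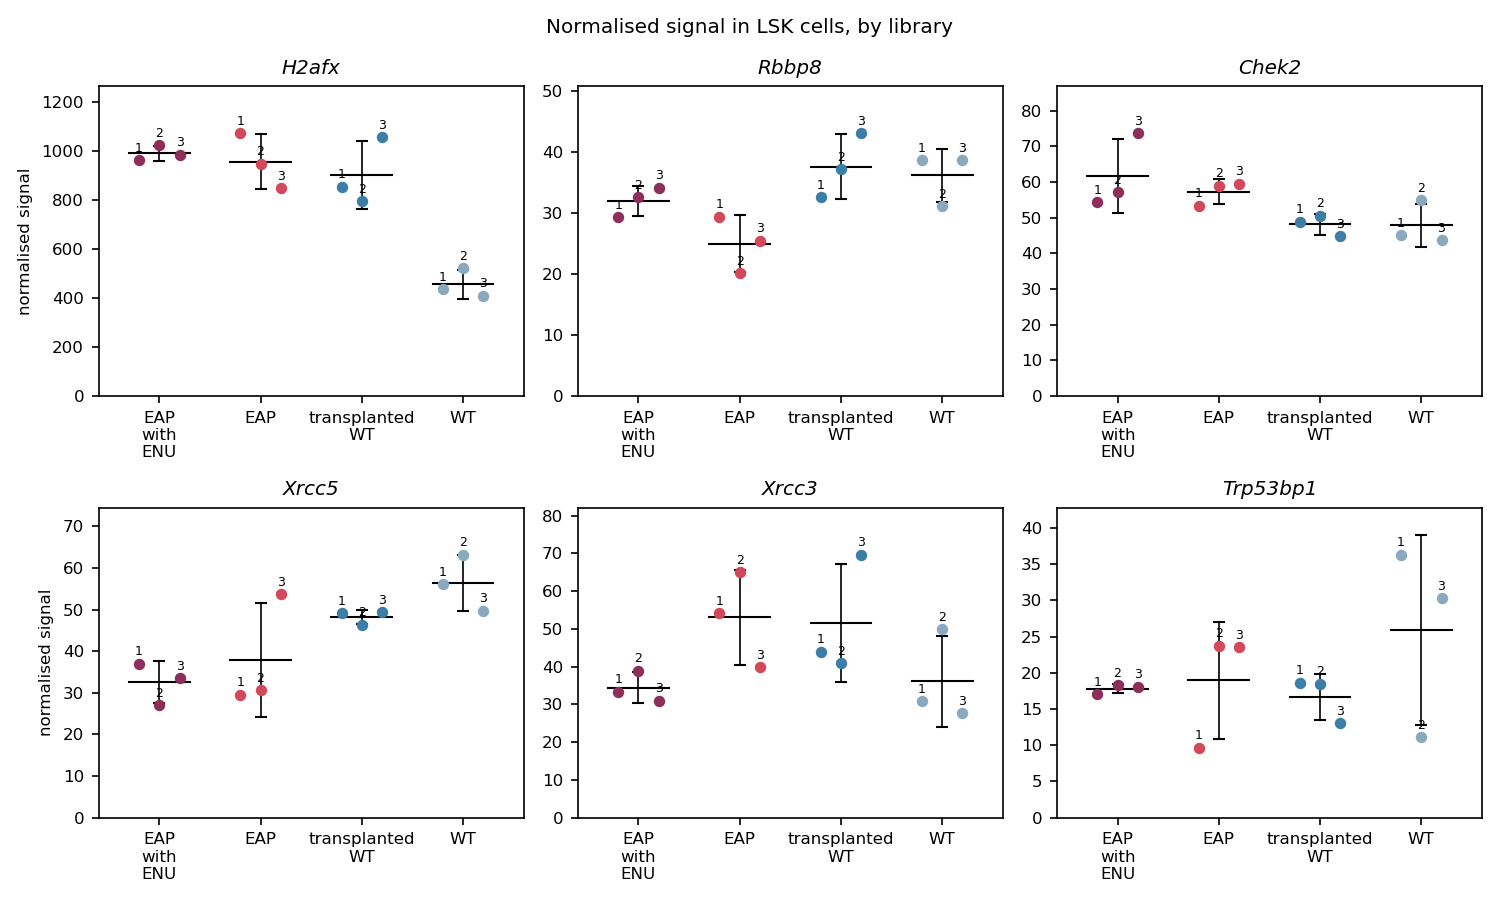
Normalised signal of 6 members in LSK cells of the 4 groups, each axis starting at 0, with a numbered point per library and lines for the mean and SD (n = 3 each). H2afx is above all WT libraries in every transplanted library. Xrcc5 is lower in EAP with ENU than in transplanted WT, and Trp53bp1 is lowest in EAP 1, WT 2 and transplanted WT 3.

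In the 3 LSK libraries that stand apart, more members lay below the 9 other libraries than above them, while all genes were nearly even. In WT 2, transplanted WT 3 and EAP 1 the deviation of a gene from the other libraries of its group fell with transcript length (Spearman rho -0.47, -0.43 and -0.57 over 8505 genes). The 9 others had a rho of -0.15 to 0.56, highest in EAP 2, whose group holds EAP 1. Of the 15 members with transcripts of 5 kb or more, 11, 11 and 13 were below the mean log2 value of their group's other libraries there. Of the 20 shorter members, 8, 7 and 11 were. The 3 libraries were set apart by this length trend, so these counts are no separate support for it. In all 3, 9 members were below each of the 9 other libraries, against 18.2% of all genes: Atr, Topbp1, Mre11a, Mdc1, Trp53bp1, Brca1, Blm, Fanca and Fancm. Rad50, Chek1, Xrcc4 and Xrcc6 were above each of the 9 others, against 17.8% of all genes. Fanca ran from 1.67 to 7.0 in the 3 libraries and from 13.2 to 30.9 in the 9 others, and Xrcc6 from 412 to 446 and from 198 to 279. Mdc1, which reads phosphorylated H2afx, ran from 2.23 to 2.57 in the 3 and from 5.99 to 8.26 in the others.

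In stromal cells, ENU against mock asked what the mutagen leaves in the marrow's supporting cells. No member had p under 0.05 before adjustment, and the median log2 difference was 0.04, against -0.01 over all genes. With cultures of the same number taken as pairs, 4 members had an unadjusted p under 0.05 (Brca1, Fanca, Rad54l and Topbp1, all higher with ENU), where 10.0% of all genes did, and 0 passed after adjustment (lowest limma adjusted p = 0.483). In all 3 pairs 12 members were higher with ENU (Topbp1, Chek1, Chek2, Mre11a, Brca1, Bard1, Palb2, Rad54l, Fanca, Fancd2, Fanci and Brip1), where 17.7% of all genes were, and Fancm alone was lower, where 19.6% were. The DNA replication sum (735 to 1542 TPM in ENU and 467 to 1534 TPM in mock cultures) and the mitosis sum (421 to 1363 TPM in ENU and 230 to 1244 TPM in mock cultures) were also higher with ENU in all 3 pairs, and their part was not tested. Mre11a had the smallest p, at 19.5, 19.0 and 16.0 TPM in ENU and 17.2, 16.5 and 14.6 TPM in mock cultures (log2 difference 0.17 ± 0.13, limma adjusted p = 1.00). Fancg was at 8.66, 8.33 and 9.64 TPM in ENU and 8.16, 9.25 and 14.9 TPM in mock cultures (log2 difference -0.21 ± 0.23, limma adjusted p = 1.00). Fanca was at 9.01, 7.89 and 3.28 TPM in ENU and 7.52, 5.32 and 1.89 TPM in mock cultures (log2 difference 0.43 ± 0.51, limma adjusted p = 1.00). Brca1 was at 9.41, 8.96 and 3.14 TPM in ENU and 8.28, 6.60 and 1.47 TPM in mock cultures (log2 difference 0.43 ± 0.62, limma adjusted p = 1.00). These errors are from the fit without pairs, and with pairs the SE was 0.123 for Fanca and 0.153 for Brca1. In each of these genes the groups overlap, as they did in all 35 members, where 2.80% of all genes were apart and higher and 4.27% apart and lower.

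The stromal values are TPM, which divides by length, so levels can be set between genes. The mean over 6 cultures ran from 2.76 TPM for Fancd2 to 43.6 TPM for Topbp1. Next above the lowest came Palb2 (2.88 TPM), Rad51c (4.18 TPM) and Bard1 (4.25 TPM). Next below the highest came H2afx (35.6 TPM), Xrcc6 (34.3 TPM), Xrcc5 (27.6 TPM) and Rad50 (26.8 TPM). Of 34 pairs of neighbours in this order, 33 had overlapping ranges over the cultures, so only coarse ranks can be read. Lig4 and Xrcc4 varied least, from 8.71 to 9.68 TPM and from 13.9 to 16.7 TPM.

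The larger split ran within both groups. In the third culture of each, 25 of the 35 members were below all 4 other cultures, against 30.7% of all genes tested, and 3 were above them (Xrcc3, Fancg and Trp53bp1), against 23.0%. Rad54l, a DNA-dependent ATPase of recombination, was at 1.51 TPM in ENU 3 and 0.664 TPM in mock 3, and at 5.50 to 8.04 TPM in the other 4 cultures. Brip1 was at 2.02 TPM in ENU 3 and 1.67 TPM in mock 3, and Blm at 2.98 and 2.96 TPM in the same 2 cultures, against means of 7.22 and 10.1 TPM in the other 4. Brca2 averaged 3.39 TPM in the third culture of both groups and 6.85 TPM in the others.

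By role, 4 of 5 checkpoint, 4 of 4 break-sensing, 4 of 5 chromatin-marking, 6 of 8 recombination and 6 of 8 Fanconi genes were below all other cultures in the third of both groups, and 1 of 5 end-joining genes, Xrcc6. Members with an E2F word in the promoter windows above did so in 7 of 8 cases, all but Fancg, those with a window and no such word in 12 of 20, and those with no window in 6 of 7. DNA replication genes did so in 19 of 20 cases, mitosis genes in 20 of 20 and the further pathway genes in 31 of 66. The DNA replication genes summed to 735 TPM in ENU 3 and 467 TPM in mock 3, against 1152 to 1542 TPM in the other 4. Their part in the members' values was not tested. The sources used here do not state the passage of each culture.

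**Figure D5:**
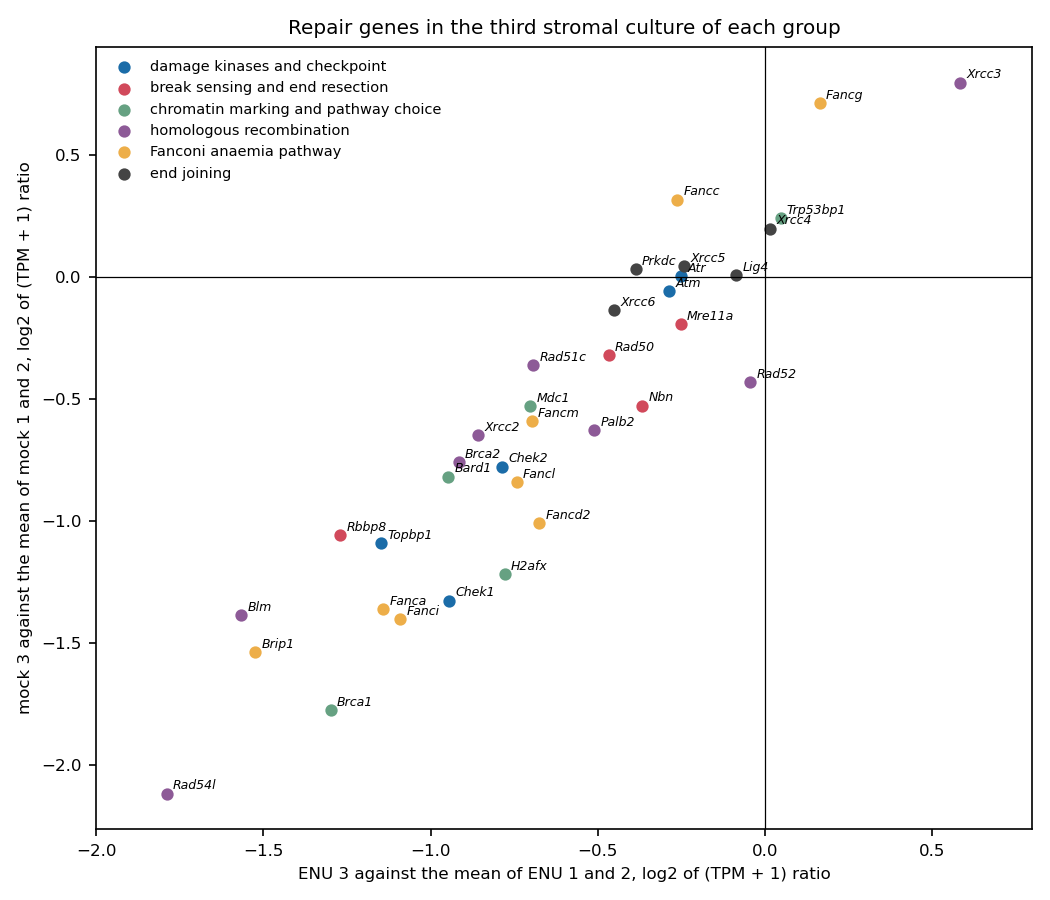
Log2 ratio of (TPM + 1) in the third culture to the mean of the other 2 of its group, for ENU (x axis) and mock (y axis) stromal cells, with a point per member coloured by role. Rad54l, Brca1, Blm and Brip1 lie far below 0 on both axes. The end-joining genes run from -0.45 (Xrcc6) to 0.016 (Xrcc4) on the x axis. On the y axis they run from -0.14 (Xrcc6) to 0.20 (Xrcc4). Xrcc3, Fancg, Trp53bp1 and Xrcc4 lie above 0 on both.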

How the data were processed

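Per the labels' protocols, RNA was isolated with Trizol and libraries were made with a TruSeq stranded mRNA kit. The submitters' processing notes name bcl2fastq, FastQC, TopHat, SAMtools, edgeR and mm10, without roles. The LSK and marrow tables hold a normalised signal per gene, deposited by the authors under the name CPM. Library totals ran from 803746 to 1437201 and were not equal, so the values were handled as signal, with the log-scale test planned for CPM. Stromal values were deposited as TPM. Tables were scaled separately, and levels are compared within a table only. How values were scaled, and so how low values and long genes were treated, is not stated in the sources used here.

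In marrow, 155 rows that repeat a gene under an alias were merged, which left 11275 genes. Each marrow library had a smallest step, taken as the worth of 1 read, and 99.99 to 100% of values were whole reads to within 0.05. Groups came from the labels. Each comparison was tested with limma 3.58.1 in R 4.3.3 on log2(value + 1), for genes that reached a value of 1 in a number of libraries equal to the smallest group, with Benjamini-Hochberg adjustment over all genes tested. LSK groups shared a fit, and so did the 12 marrow libraries for the test of ENU in AML. Differences on this scale understate the change of low genes. edgeR 4.0.16 was run on the recovered marrow reads. Nothing says that replicates were pooled or split from a mouse, and p-values measure the spread between these samples.

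Members and lists were chosen with earlier results of these data known, and 1 gene first put in the list of further pathway genes is not reported here. Named members are those past the threshold or, failing that, the 4 with the smallest p per comparison. Others are named where a level, a role or a single library is described. The labels do not say that the numbers pair samples, and the main fits have no block. Same-numbered stromal cultures deviated together from their group means (correlations 0.566, 0.706 and 0.742 for numbers 1, 2 and 3, all over 0.1). The highest correlation of mock 1, 2 and 3 with an ENU culture of another number was 0.335, 0.186 and -0.523. For this reason, seen in the same data, the stromal numbers were also taken as pairs. The shift of the third cultures enters the group means, and so the deviations of numbers 1 and 2. These correlations therefore do not establish how numbers 1 and 2 pair. The block changed no call. The limma test was run on simulated data with independent noise per gene and no shift shared by a library. That check does not cover the splits between libraries described above. Tables were made with pandas 2.3.3 in Python 3.11.15.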

Additional observations from a re-analysis of the deposited data

Results flagged for a closer look

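Among 70 groups of 6 marrow libraries (35 members in AML and in MDS), 5 held a library far from the rest of its group, and chance alone flags about 1 group in 20. Lig4 was at 59.2 in AML 5, with the next AML library at 24.2. Rad52 was at 26.5 in AML 3, with the next AML library at 17.2. Brca2 was at 103 in MDS 1, with the next MDS library at 65.3, and Trp53bp1 was at 137 in the same mouse, with the next at 84.2. Xrcc4 was at 13.1 in MDS 5, with the next MDS library at 10.8.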

How the results depend on the processing

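For 35 results on single members, 489 alternative settings were run (no filter on low values, a pseudocount of 0.1, rescaling by median of ratios, the replicate block, each library left out, other sets of libraries, edgeR), of which 472 kept direction and side of the threshold, 14 moved past it and 3 turned sign. Those 3 came without mock stromal replicate 3. Over the stromal libraries left out in turn, the log2 difference of ENU against mock ran from -0.37 to 0.026 for Fancg, from -0.016 to 0.81 for Fanca and from -0.16 to 0.87 for Brca1. Of 92 alternative counts of members past the threshold, 85 were 0. In transplanted WT against WT the count was 2 without the libraries that stand apart and 1 with a term for them, both chosen after seeing the data. In AML against MDS it ranged from 0 to 7 when 1 library was left out, and was 1 with edgeR. In AML with ENU against AML without ENU it ranged from 0 to 1, and was 0 with edgeR. With the replicate block the count was 0 in every comparison, and in LSK cells and marrow the numbers did not pair the libraries. Adjusted p over alternatives ran from 0.0083 to 0.327 for Atm and 0.0310 to 0.316 for Blm in AML against MDS, and from 0.0134 to 0.964 for H2afx in transplanted WT against WT. The cause of these moves was not tested. Groups of 2 to 3 libraries limit the LSK, stromal and ENU comparisons, and depth is unknown outside marrow.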
